A study of Bos taurus with 10 samples.

Results

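The messenger RNAs of 10 proteins that write, read or erase N6-methyladenosine (m6A) were followed in bovine (Bos taurus) oviductal organoids under heat stress (HS). The members were taken from the deposited table by gene name, namely the writers METTL3, METTL14, WTAP and VIRMA, the readers YTHDF1, YTHDF2, YTHDF3 and YTHDC1, and the erasers ALKBH5 and FTO. All 10 were found among the 26,804 genes of the table, and all 10 were among the 12,149 genes that passed the filter on low values (a level of 1 TPM reached by 4 or more of the 9 libraries compared). The values are TPM, the share of a library's transcripts that belongs to a gene after correction for its length, so that levels can be compared between genes.

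The organoids were grown from epithelial cells scraped from diestrus oviducts of slaughtered cows. They were kept at 37 °C (thermoneutral, 37C) or moved to 42 °C for the last day of culture (42C). There were 5 libraries per temperature, lettered A to E, each from a pool of 2 animals, and the same oviducts were represented at both temperatures. No genetic change is named for either group, and no treatment other than the temperature is named as differing between them. The organoid medium of both groups held growth factors, a TGFβ/Alk inhibitor, SB202190 and Y27632. The library 42C B was left out of the comparison, since the study set aside 1 HS replicate without naming it and B is missing among the HS libraries of its later heatmap, and its values are given separately. The comparison therefore rests on 5 thermoneutral and 4 HS libraries.

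N6-methyladenosine is the most common internal mark of messenger RNA. METTL3 carries out the methylation as a dimer with METTL14, and WTAP and VIRMA bind this dimer and direct it to its sites in the nucleus. Proteins with a YTH domain bind the marked base: YTHDC1 works in the nucleus on splicing and export, and the YTHDF proteins work in the cytoplasm on translation and decay. ALKBH5 and FTO are dioxygenases that remove the mark. In mouse and human cells, m6A has been linked to the translation of heat shock messengers such as that of HSP70, and YTHDF2 has been seen to move into the nucleus on heat shock.

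Every one of the 10 members had a higher level at 42 °C than at 37 °C, without overlap between the 5 thermoneutral and the 4 HS libraries. Each difference had an adjusted p below 0.05 in the limma test across all genes. A gene was called when its log2 difference was in addition at least 1 in size, and YTHDC1, VIRMA, ALKBH5 and YTHDF1 were called higher. The other 6 members lay under this fold threshold, and 0 members were lower. Over all 12,149 tested genes, 15.8% were called higher and 7.14% lower, 45.1% were higher and 18.1% lower at an adjusted p below 0.05 alone, and in 36.6% every HS library lay above every thermoneutral one (in 12.3%, below). The median log2 difference was 0.87 over the members and 0.30 over all tested genes, so that the median gene also held a larger share of its library at 42 °C. Relative to that shift the members ranged from -0.02 for WTAP to 1.04 for YTHDC1. In organoid RNA from whole cultures, more cells that express a gene and more RNA of it per cell cannot be told apart.

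**Figure D1:**
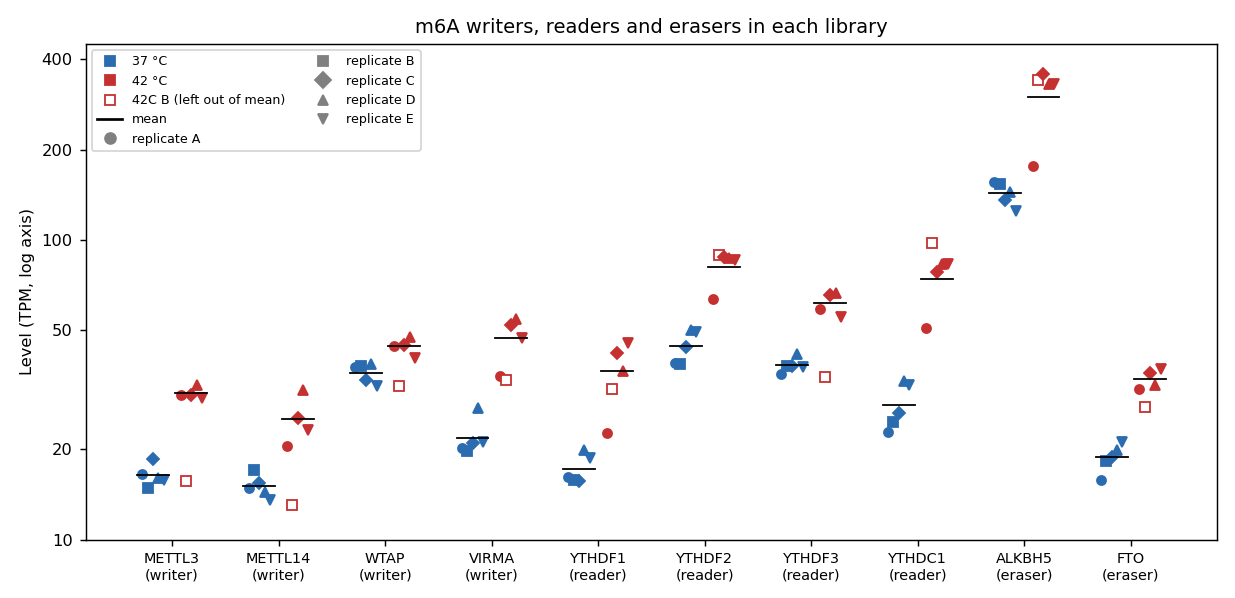
TPM of each member on a log axis, with 1 point per library, blue for 37 °C and red for 42 °C, the marker shape giving the replicate letter, the black bar giving the mean, and the open square giving 42C B, which is not in the mean. All 10 members sit higher in 42C A, C, D and E than in any thermoneutral library, whereas 42C B falls to the thermoneutral range or below it for METTL3, METTL14, WTAP and YTHDF3.

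At 37 °C the eraser ALKBH5 was by far the most abundant member, at 143 ± 12.9 TPM (SD, n = 5), and ranked at 1101 of 12,149 tested genes. It was followed by YTHDF2, YTHDF3, WTAP, YTHDC1, VIRMA, FTO, YTHDF1, METTL3 and METTL14, from 44.1 down to 15.1 TPM. Only ALKBH5 stood apart from the next member in this order, and all other neighbours overlapped over the 5 libraries. At 42 °C ALKBH5 still led with 299 ± 82.7 TPM (SD, n = 4), and METTL14 was still the lowest with 25.2 ± 4.68 TPM (SD, n = 4). YTHDC1 moved from the fifth to the third place and VIRMA from the sixth to the fifth, while WTAP moved from the fourth to the sixth. At this temperature ALKBH5 and YTHDF2 did not overlap, nor did YTHDF3 and VIRMA, and the remaining neighbours did. Summed by role, the writers held 89.5 ± 4.72 TPM at 37 °C and 148 ± 15.4 TPM at 42 °C, the readers 128 ± 13.7 and 253 ± 37.9 TPM, and the erasers 162 ± 11.3 and 333 ± 84.5 TPM.

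Among the writers, METTL3 (ENSBTAG00000015148), the catalytic subunit, was at 16.6, 14.9, 18.6, 16.1 and 15.8 TPM in 37C A to E. In 42C A, C, D and E it was at 30.4, 30.3, 32.8 and 29.8 TPM. The 4 HS libraries were alike, and all lay well above the thermoneutral ones. The log2 difference was 0.87 (SE 0.11, 95% interval 0.64 to 1.11, adjusted p = 6.84e-05), under the fold threshold. METTL14 (ENSBTAG00000014080), the partner that holds the RNA substrate, was at 14.9, 17.0, 15.5, 14.4 and 13.6 TPM at 37 °C, and its HS values were 20.6, 25.5, 31.6 and 23.3 TPM at 42 °C. Here the HS libraries were spread, with 42C A the lowest and 42C D the highest, and the difference was 0.69 (SE 0.14, 95% interval 0.39 to 0.997, adjusted p = 0.00111).

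WTAP (ENSBTAG00000007974), which brings the dimer to nuclear speckles, showed the smallest difference of the 10 members. It was at 37.6, 37.8, 34.1, 38.5 and 32.4 TPM at 37 °C and at 44.4, 44.6, 47.3 and 40.5 TPM at 42 °C. The gap between the groups was narrow, from 38.5 to 40.5 TPM, and the difference of 0.29 (SE 0.10, 95% interval 0.07 to 0.51, adjusted p = 0.0264) equalled the shift of the median gene within 0.02. With median-ratio scaling between libraries, which removes that shift, WTAP differed by -0.051 (adjusted p = 0.696), and with quantile normalization by 0.01 (adjusted p = 0.962). Its adjusted p was between 0.0614 and 0.0707 without 37C C, 37C E, 42C C or 42C D. VIRMA (ENSBTAG00000003789), the large scaffold of the writer complex, was at 20.3, 19.8, 20.99, 27.4 and 21.2 TPM at 37 °C. It reached 35.3, 52.2, 54.6 and 46.9 TPM at 42 °C. The thermoneutral library 37C D was the highest of its group and 42C A the lowest of its own, still above 37C D. VIRMA rose by 1.06 on the log2 scale (SE 0.15, 95% interval 0.74 to 1.39, adjusted p = 0.000135), and was under the fold threshold without 42C D (0.99).

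Among the readers, YTHDC1 (ENSBTAG00000015572), the nuclear reader, showed the largest difference of the members. It was at 23.0, 24.6, 26.5, 34.0 and 32.7 TPM at 37 °C and at 50.9, 78.2, 82.9 and 83.3 TPM at 42 °C. The libraries 42C C, D and E lay close together, and 42C A lay between them and the thermoneutral group. YTHDC1 rose by 1.35 (SE 0.17, 95% interval 0.97 to 1.73, adjusted p = 8.46e-05), a ratio of mean TPM of 2.62. It was the only member called under all 20 alternatives, with differences between 1.01 (median-ratio scaling) and 1.52 (without 42C A).

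The 3 YTHDF proteins are close paralogs, so that reads could be shared between their transcripts, and how the mapping split such reads is not given in the sources used here. YTHDF2 (ENSBTAG00000015771), which brings marked messengers to deadenylation and decay, was at 38.9, 38.6, 43.8, 49.97 and 49.3 TPM at 37 °C. It was at 63.7, 87.8, 86.8 and 85.6 TPM at 42 °C. Again 42C C, D and E were alike and 42C A was lower, and the difference of 0.86 (SE 0.13, 95% interval 0.57 to 1.14, adjusted p = 0.000218) was under the fold threshold. YTHDF3 (ENSBTAG00000018557), described as acting with both other YTHDF proteins, was at 35.6, 38.0, 37.8, 41.6 and 37.6 TPM at 37 °C and at 58.6, 65.2, 66.7 and 55.3 TPM at 42 °C. Unlike the other readers it was not lowest in 42C A but in 42C E, and it differed by 0.67 (SE 0.10, 95% interval 0.46 to 0.89, adjusted p = 0.000181). YTHDF1 (ENSBTAG00000010383), known for raising the translation of marked messengers, was at 16.1, 15.8, 15.7, 19.9 and 18.7 TPM at 37 °C and at 22.7, 41.8, 36.5 and 45.1 TPM at 42 °C. Its 42C A value lay just above the thermoneutral range. YTHDF1 rose by 1.003 (SE 0.18, 95% interval 0.60 to 1.41, adjusted p = 0.000693), at the edge of the threshold. With the replicate letter as a block it differed by 0.97 (adjusted p = 0.00244) and was not called, nor was it when any one of 37C A, B or C or 42C C, D or E was left out (0.89 to 0.99).

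Of the erasers, ALKBH5 (ENSBTAG00000025046) was at 156, 154, 136, 144 and 124.9 TPM at 37 °C. At 42 °C its level was 176 TPM in 42C A, as against 358, 332 and 330.2 TPM in the HS libraries C, D and E. The HS group was thus split, with 42C A close to the thermoneutral range and the other 3 libraries far above it. ALKBH5 rose by 1.01 (SE 0.19, 95% interval 0.60 to 1.42, adjusted p = 0.000681), by 1.25 without 42C A, and was under the fold threshold (0.91 to 0.995) without 37C C, 37C E, 42C C, 42C D or 42C E. FTO (ENSBTAG00000012501), known for its link to body mass in humans, was at 15.9, 18.3, 18.9, 19.9 and 21.1 TPM at 37 °C. It was at 31.7, 35.9, 32.9 and 37.0 TPM at 42 °C. The 4 HS libraries of FTO were close to each other, and the difference was 0.84 (SE 0.12, 95% interval 0.59 to 1.09, adjusted p = 0.000121), under the fold threshold.

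Another scaling between libraries changed the count of calls. Over all genes, 1915 were called higher and 867 lower as deposited, 921 and 1434 with median-ratio scaling, and 981 and 1253 with quantile normalization. With median-ratio scaling 1 of 10 members was called (YTHDC1, against 7.58% of all genes called higher) and 9 were higher at an adjusted p below 0.05 (28.8% of all genes), WTAP being the exception. With quantile normalization 1 was called higher and 0 lower (8.07% and 10.3% of all genes), and 8 were higher and 0 lower at an adjusted p below 0.05 (31.3% and 25.8% of all genes), WTAP and METTL14 being the exceptions. The median over the members was 0.53 with median-ratio scaling, where that over all genes was -0.01, and 0.59 with quantile normalization, where it was 0.07.

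**Figure D2:**
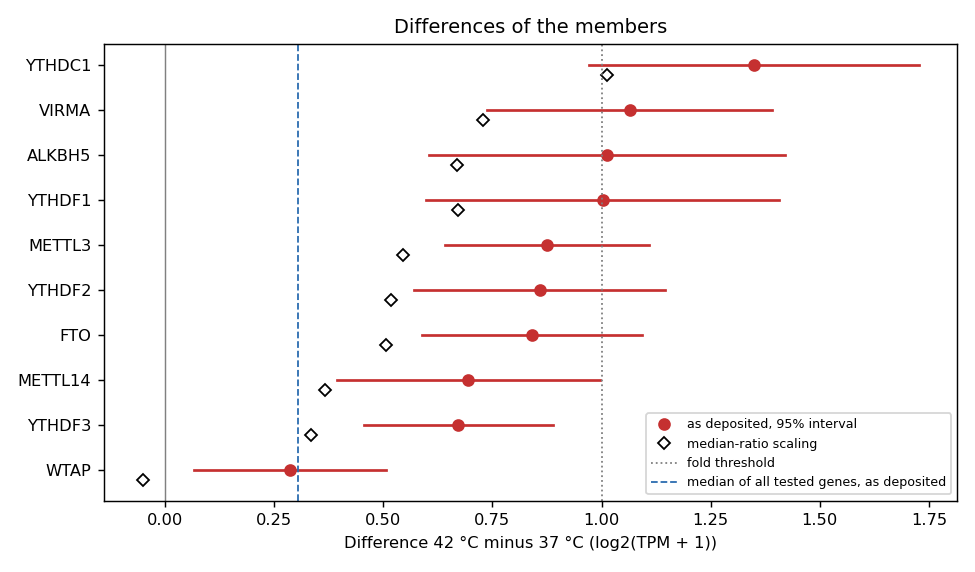
Difference between 42 °C and 37 °C of each member on the log2(TPM + 1) scale as deposited (red, bars are 95% intervals) and with median-ratio scaling (open diamonds), with the median of all tested genes as a dashed line at 0.30 and the fold threshold as a dotted line at 1. YTHDC1 has the largest difference under both scalings (1.35 and 1.01), and WTAP lies at the median of all genes (0.29) and at -0.051 after scaling.

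The libraries 42C A and 42C B differed from 42C C, D and E and from each other in the m6A genes. To place them, the thermoneutral mean of a gene on the log2(TPM + 1) scale was set at 0% and the mean of 42C C, D and E at 100%. Over the 2782 genes called in the comparison, the median position was 61.1% for 42C A and 80.9% for 42C B. These genes were called with 42C A, C, D and E and without 42C B, so the medians are not on an equal footing. HSPA1A, the main inducible HSP70 and a gauge of the heat response, was between 402 and 476 TPM at 37 °C, and reached 1830 TPM in 42C A, 4615 to 5614 TPM in the HS libraries C, D and E, and 7333 TPM in 42C B.

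In 42C A, WTAP, METTL3, YTHDF3 and FTO stood at 103%, 97.3%, 88.0% and 83.3%, that is, near the level of the other HS libraries. VIRMA, YTHDC1, METTL14 and YTHDF2 stood between 54.6% and 56.2%, and YTHDF1 and ALKBH5 at 31.9% and 24.5%. The library 42C B had another order. YTHDC1 (97.8 TPM), YTHDF2 (88.8 TPM) and ALKBH5 (343 TPM) stood at 117%, 104% and 101.0%, so that these members had their full HS level there. YTHDF1, FTO and VIRMA were intermediate in 42C B, at 70.7%, 62.0% and 51.8%. These 6 members lay above every thermoneutral library in 42C B, as did 29.4% of all tested genes. METTL3 (15.7 TPM), YTHDF3 (35.0 TPM), METTL14 (13.1 TPM) and WTAP (32.6 TPM) stood at -6.52%, -17.3%, -23.7% and -49.8%, at or below their thermoneutral means. The 3 members nearest to full level in 42C A were thus among the 4 at or below the thermoneutral mean in 42C B, and the highest 3 in 42C B held 56.0% or less in 42C A. These positions are single libraries and were not tested. Other values moved with 42C B. Of 2 erythroid markers, the globin gene HBA was at 5596 TPM there and between 89.8 and 573 TPM in the other libraries, and HBB was at 0 throughout. The summed level of the 5 epithelial markers was 2479 TPM in 42C B and at least 4856 TPM elsewhere. Their part in the values of 42C B was not tested. With 42C B included, 2 members were called (YTHDC1 and ALKBH5, against 13.4% of all genes called higher), and METTL14 and WTAP had an adjusted p of 0.0580 and 0.260.

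**Figure D3:**
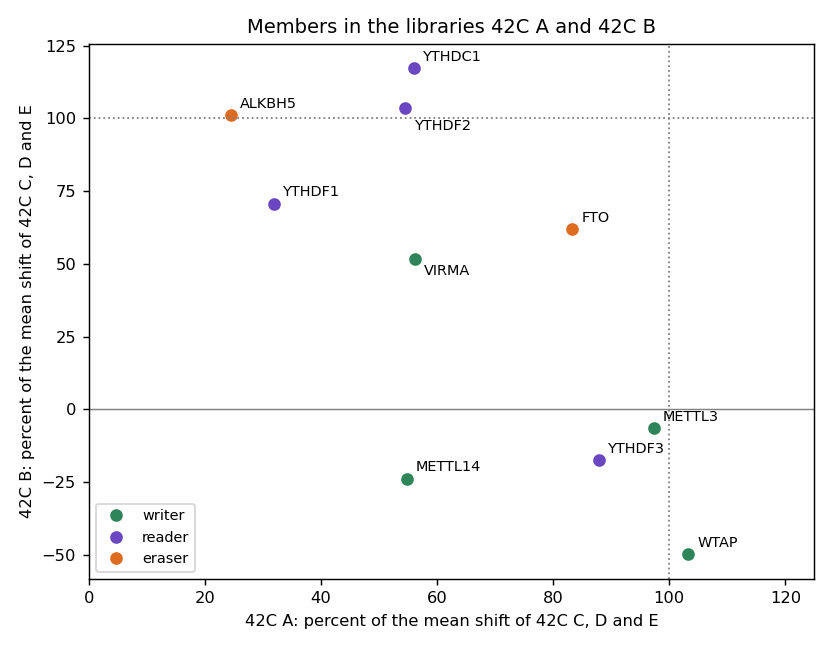
Position of each member in 42C A (horizontal axis) and 42C B (vertical axis), in percent of the mean shift of 42C C, D and E from the thermoneutral mean on the log2(TPM + 1) scale, coloured by role, with 100% as dotted lines. METTL3, WTAP and YTHDF3 lie at the lower right (88.0% to 103% in 42C A and below 0% in 42C B), and ALKBH5 lies at the upper left (24.5% and 101.0%).

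Ratios between members were taken within each library, which makes them nearly independent of the scaling between libraries. Of 8 ratios compared, those of WTAP to METTL3 and of YTHDC1 to YTHDF2 differed between the temperatures. The log2 ratio of WTAP to METTL3 was 1.14, 1.29, 0.84, 1.21 and 0.99 in 37C A to E and 0.53, 0.54, 0.51 and 0.43 in 42C A, C, D and E. All 4 HS libraries lay below all thermoneutral ones, with a difference of -0.59 (exact two-sided permutation p = 0.00794, the smallest that 126 assignments of 5 and 4 libraries can give, adjusted p = 0.0317 over the 8 ratios). WTAP was thus the more abundant of both in every library, by a smaller factor at 42 °C. In 42C B the ratio was 1.01, within the thermoneutral range.

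The log2 ratio of YTHDC1 to YTHDF2 was -0.74, -0.63, -0.70, -0.54 and -0.58 at 37 °C and -0.32, -0.17, -0.07 and -0.04 at 42 °C. The groups did not overlap, and the nuclear reader drew near to the level of YTHDF2 at 42 °C (difference 0.49, exact permutation p = 0.00794, adjusted p = 0.0317 over the 8 ratios). In 42C B the ratio was 0.14, above all other libraries. Within the 4 pairs of the same letter the mean differences were -0.54 and 0.49, each with an exact sign-flip p of 0.125, the smallest that 4 pairs allow.

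The other 6 ratios overlapped between the temperatures and did not pass the test, which does not show them equal. The log2 ratio of METTL3 to METTL14, the partners of the methylating dimer, was 0.12 ± 0.170 (SD, n = 5) at 37 °C and 0.30 ± 0.203 (SD, n = 4) at 42 °C (exact permutation p = 0.230, adjusted p = 0.349), with single libraries from -0.18 in 37C B to 0.54 in 42C A. The ratio was 0.24 in 42C B, where both were low. VIRMA to METTL3, YTHDF1 to YTHDF2 and YTHDF3 to YTHDF2 differed by 0.19, 0.14 and -0.19 (exact permutation p from 0.151 to 0.262, adjusted p = 0.349 for each). ALKBH5 exceeded FTO by a log2 ratio of 2.86 ± 0.266 (SD, n = 5) at 37 °C and 3.03 ± 0.404 (SD, n = 4) at 42 °C (exact permutation p = 0.468, adjusted p = 0.535). ALKBH5 to METTL3, the leading eraser against the catalytic writer, was 3.05 ± 0.192 (SD, n = 5) and 3.18 ± 0.467 (SD, n = 4) (exact permutation p = 0.579, adjusted p = 0.579), with 42C A at 2.50 and 42C B at 4.36 as the lowest and the highest of the 10 libraries.

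**Figure D4:**
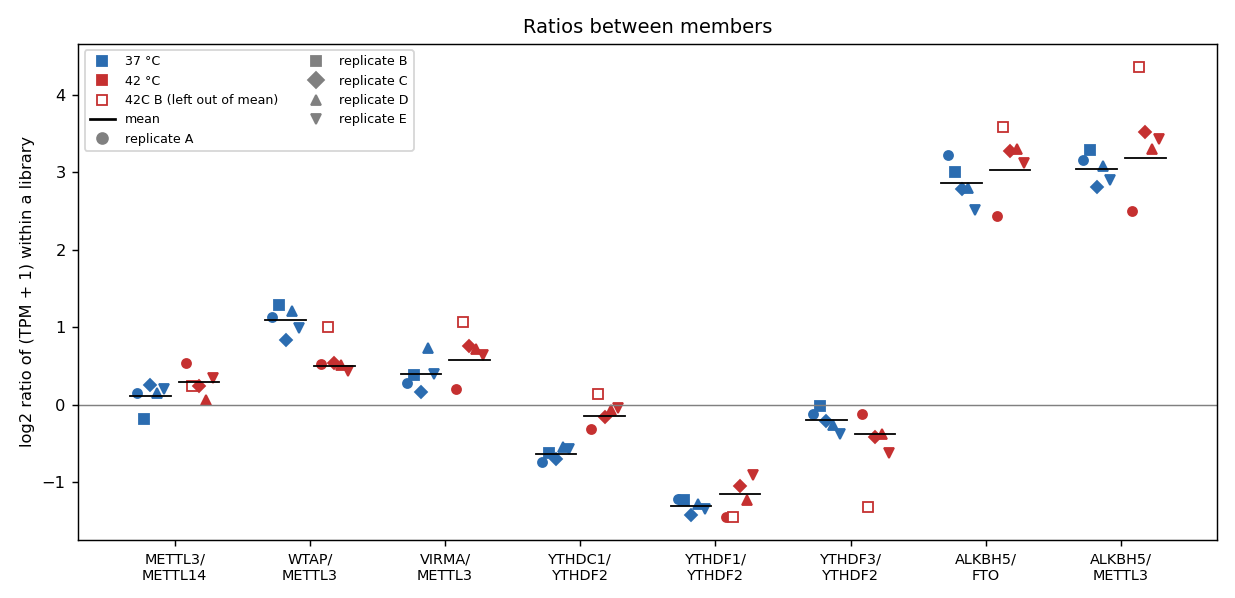
Log2 ratio of 2 members within each library (TPM + 1 in both), with 1 point per library in the colours and shapes of the level plot and the mean as a black bar. Only WTAP to METTL3 and YTHDC1 to YTHDF2 separate 37 °C from 42C A, C, D and E, with differences of -0.59 and 0.49.

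The other genes of the pathway were taken from a list of 33, of which 32 were in the table and 30 were tested. Of these 30, 6 were called higher and 0 lower, a share of higher calls near the 15.8% of all tested genes (7.14% lower). At an adjusted p below 0.05 alone, 24 were higher and 3 lower (45.1% and 18.1% of all genes), and 3 were not below it. Their median difference was 0.63, against 0.30 over all genes. With median-ratio scaling 2 were called higher and 1 lower (7.58% and 11.8% of all genes), and 15 were higher and 3 lower at an adjusted p below 0.05 (28.8% and 29.8% of all genes). Of the 27 genes that passed as deposited, 9 missed an adjusted p of 0.05 with median-ratio scaling (ZC3H13, METTL5, ZCCHC4, PRRC2A, EIF3A, UPF1, SRSF10, MAT2A and AHCY), and 5 of these also missed it with quantile normalization (ZC3H13, METTL5, ZCCHC4, UPF1 and MAT2A). With 42C B included 9 missed it (METTL4, METTL5, ZCCHC4, ZC3H13, PRRC2A, EIF3A, SRSF3, SRSF10 and MAT2A).

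The other 4 subunits of the writer complex had higher means at 42 °C as deposited. RBM15, which with RBM15B leads the complex to its targets, had the largest difference of all pathway genes. It was at 7.89, 6.24, 6.91, 8.61 and 7.96 TPM at 37 °C and at 17.5, 29.1, 27.5 and 30.2 TPM at 42 °C. RBM15 rose by 1.64 (SE 0.17, adjusted p = 3.49e-05), and was called under both other scalings as well (1.32 and 1.29). CBLL1, an E3 ligase of the complex, rose by 1.03 (adjusted p = 0.000957). It was higher but under the fold threshold with median-ratio scaling (0.71, adjusted p = 0.00585) and without 37C A (0.95), 42C D (0.97) or 42C E (0.91). RBM15B differed by 0.67 (adjusted p = 0.000571). ZC3H13, the zinc finger subunit, differed by 0.57 (adjusted p = 0.00596) as deposited, by 0.25 with median-ratio scaling (adjusted p = 0.143) and by 0.24 with 42C B included (adjusted p = 0.549).

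RNA methyltransferases outside this complex went in both directions. METTL16, which in human cells methylates U6 RNA and the messenger of MAT2A, was at 7.22, 8.48, 9.17, 8.02 and 7.73 TPM at 37 °C and at 15.9, 32.9, 27.6 and 25.2 TPM at 42 °C. It rose by 1.49 (SE 0.19, adjusted p = 7.81e-05), and by 1.17 with median-ratio scaling. TRMT112, the partner that stabilizes METTL5, rose by 1.05 (adjusted p = 0.000243), and METTL5, which methylates 18S ribosomal RNA, differed by 0.48 (adjusted p = 0.0116) as deposited, by 0.14 with median-ratio scaling (adjusted p = 0.385) and by 0.18 with 42C B included (adjusted p = 0.635). TRMT112 was under the fold threshold with median-ratio scaling (0.71) and without 37C D, 42C D or 42C E. METTL4, which in human cells methylates U2 small nuclear RNA, rose by 1.15 from a low level of 1.31 TPM (adjusted p = 0.000428), and was under the threshold with median-ratio scaling (0.91), with a pseudocount of 5 (0.54) and with all 10 libraries (0.80). ZCCHC4, which methylates 28S ribosomal RNA, differed by 0.44 (adjusted p = 0.0442) as deposited and by 0.17 with median-ratio scaling (adjusted p = 0.408). Its adjusted p was 0.0736 with the replicate letter as a block and between 0.0719 and 0.101 without 37C B, C or E or 42C A or D.

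PCIF1, which methylates the adenosine next to the cap, lay on the opposite side. It was at 15.1, 15.2, 16.4, 18.8 and 16.6 TPM at 37 °C and at 9.97, 8.54, 8.38 and 8.02 TPM at 42 °C, and all HS libraries lay below all thermoneutral ones. The difference was -0.84 (SE 0.12, adjusted p = 0.000185), under the fold threshold as deposited and called lower with median-ratio scaling (-1.15) and quantile normalization (-1.19).

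Among other proteins that bind m6A or act near it, FXR2, a relative of the fragile X protein, rose by 1.13 (adjusted p = 8.25e-05; 0.79 and not called with median-ratio scaling), and its relatives FMR1 and FXR1 differed by 0.71 and 0.66 (adjusted p = 0.00105 and 0.000111). HNRNPC and HNRNPA2B1, nuclear proteins whose RNA binding has been tied to m6A, differed in opposite directions. HNRNPC had a mean of 239 ± 15.2 TPM in the thermoneutral group (SD, n = 5) against 457 ± 93.5 TPM under HS (SD, n = 4), a difference of 0.91 (adjusted p = 0.000209), and it was called without 42C A (1.06). HNRNPA2B1 had a mean of 503 ± 40.2 TPM in the thermoneutral group (SD, n = 5) against 376 ± 99.9 TPM under HS (SD, n = 4), a difference of -0.45 (adjusted p = 0.0197). HNRNPA2B1 was at 525 TPM in 42C A, inside the thermoneutral range, and its adjusted p was between 0.0523 and 0.0642 without 42C C, D or E. IGF2BP2, which stabilizes marked messengers, differed by 0.91 (adjusted p = 0.00393; 1.01 and 1.06 and called without 37C D or 42C E), whereas IGF2BP1 was listed at 0 throughout and IGF2BP3 stayed at 0.15 TPM or less. ELAVL1, a stabilizer of messengers, PRRC2A, and EIF3A, a subunit of a translation initiation factor, differed by 0.69, 0.60 and 0.31 (adjusted p = 0.000667, 0.00169 and 0.0131). With median-ratio scaling PRRC2A differed by 0.25 (adjusted p = 0.115) and EIF3A by -0.038 (adjusted p = 0.717). YTHDC2, a helicase with a YTH domain, had a mean of 5.60 ± 1.19 TPM in the thermoneutral group (SD, n = 5) against 5.87 ± 1.12 TPM under HS (SD, n = 4). Its difference of 0.063 (95% interval -0.32 to 0.45, adjusted p = 0.771) was negative with median-ratio scaling (-0.23) and without 37C B (-0.0075) or 42C A (-0.045).

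Partners of the readers were uneven. Of the decay factors that work with YTHDF2, CNOT1, the scaffold of the deadenylase, and RIDA, its bridge to RNase P, differed by 0.81 and 0.71 (adjusted p = 0.000121 and 0.00164), and UPF1, a helicase of nonsense-mediated decay, by 0.36 (adjusted p = 0.0229). UPF1 differed by 0.017 with median-ratio scaling (adjusted p = 0.903), and its adjusted p was 0.0886 with the replicate letter as a block and between 0.0576 and 0.0661 when 37C B or the HS library C or E was left out. POP1, a subunit of RNase P, differed by -0.017 (95% interval -0.37 to 0.34, adjusted p = 0.936), and its sign turned (up to 0.043) when any one of 37C A, C or D or 42C A, C or E was left out. Of the partners of YTHDC1, the export receptor NXF1 and the splicing factor SRSF10 differed by 0.96 and 0.49 (adjusted p = 0.000666 and 0.00120), while the splicing factor SRSF3 was lower in every HS library (-0.46, adjusted p = 0.000794). NXF1 was called without 42C A (1.15), and SRSF10 differed by 0.15 with median-ratio scaling (adjusted p = 0.166). The genes of the methyl donor lay near the median gene. MAT2A, which makes S-adenosylmethionine, MAT2B, its regulatory subunit, and AHCY, which clears the spent donor, differed by 0.31, 0.19 and 0.27 (adjusted p = 0.0289, 0.209 and 0.0235), and by -0.031, -0.16 and -0.078 with median-ratio scaling (adjusted p from 0.243 to 0.820). The adjusted p of MAT2A was 0.0855 with the replicate letter as a block and between 0.0507 and 0.0934 without 37C A, B or C or 42C C or D, and that of AHCY was 0.0582 without 37C E.

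**Figure D5:**
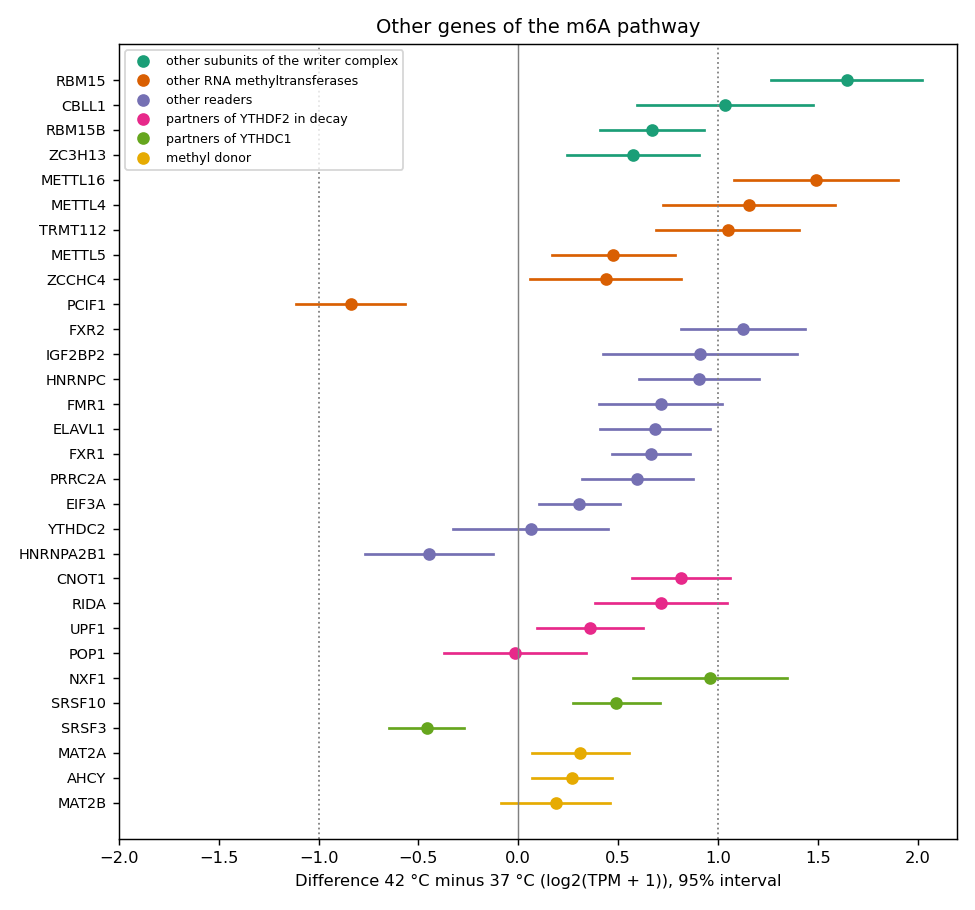
Difference between 42 °C and 37 °C of the 30 tested pathway genes outside the 10 members, on the log2(TPM + 1) scale as deposited, with 95% intervals, coloured by role, and dotted lines at 1 and -1. RBM15 (1.64) and METTL16 (1.49) lie farthest to the right and PCIF1 (-0.84) farthest to the left.

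The genes whose log2(TPM + 1) values followed the called members most closely over the 9 libraries were named as a description, from 9581 genes with a symbol and a mean of 5 TPM or more. Such values share the temperature contrast and the intermediate position of 42C A. YTHDC1 was closest to PPP3CA (a calcineurin subunit), INTS2 (of the Integrator complex), YTHDF2, GEMIN5 (of the SMN complex) and NHLRC3 (Pearson r from 0.996 to 0.998, Spearman rho from 0.917 to 1), YTHDF2 being itself a member. VIRMA was closest to PDZD8, WIZ, ZNF322, PRKCI and SEC24C, the last of the vesicle coat COPII (r from 0.996 to 0.997), YTHDF1 to RBM12B, IL17RA, DCUN1D2, C3H1orf109 and KIAA1191 (r from 0.992 to 0.994), and ALKBH5 to KLHL21, TAF12, LSG1, CCDC127 and UTP6 (r from 0.993 to 0.994).

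Each library held between 11,565 and 12,162 genes that reached 1 TPM, and read depth cannot be told from TPM. All 5 epithelial markers were present (summed level 6133 to 7556 TPM at 37 °C and 4856 to 6291 TPM at 42 °C), and they differed in opposite directions: EPCAM, CDH1 and PAX8 by 0.66, 0.98 and 0.24 (adjusted p = 0.00193, 5.78e-05 and 0.0448), KRT8 and KRT18 by -0.59 and -0.76 (adjusted p = 0.00200 and 0.00241). Of the ciliated markers 3 of 5 reached 1 TPM in any library (12.6 to 41.7 TPM and 8.13 to 16.7 TPM), and of the secretory markers 2 of 3 (8145 to 10,510 TPM and 3483 to 4020 TPM), the oviductal glycoprotein OVGP1 staying at 0.73 TPM or less. Fibroblast markers reached 1 TPM in 0 of 5 genes and leukocyte markers in 0 of 4, ITGAM and CSF1R being at 0 throughout. The sums of endothelial markers (1.06 to 2.46 TPM and 2.33 to 4.27 TPM) and muscle markers (3.22 to 10.02 TPM and 0.95 to 2.92 TPM) were low at both temperatures. VWF, the only endothelial marker to reach 1 TPM, was higher in every compared HS library (0.74, adjusted p = 0.00945) but under the fold threshold. The secretory sum rested on KRT19 and MSLN, OVGP1 being near the floor, and is not a measure of the number of secretory cells. The sums of secretory and muscle markers were lower in every compared HS library than in any thermoneutral one. This did not hold for each gene. KRT19, in the secretory sum, was called lower without overlap (-1.53, adjusted p = 0.000281). MSLN, in the same sum, was called lower with overlap (-1.09, adjusted p = 0.0208). So was ACTA2, the only muscle marker to reach 1 TPM (-1.31, adjusted p = 0.00281). The ciliated sums overlapped, as did FOXJ1 (-0.64, adjusted p = 0.105), whereas the cilium genes TEKT1 and TEKT2 were called lower without overlap (-1.47 and -1.39, adjusted p = 0.00400 and 0.000579). The part of these markers in the differences of the m6A genes was not tested.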

How the data were processed

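RNA of the organoids was sequenced from 5 libraries at 37 °C and 5 at 42 °C. The deposited TPM values were made by the authors in CLC Genomics Workbench after trimming and mapping to ARS-UCD1.2, and bcl2fastq, Bowtie2 2.2.2 and DESeq2 appear in the submitters' processing notes without their steps. Every deposited column summed to 1000000 TPM, which leaves no TMM factor in the values, and depth is unknown, so that no counting interval is given. No strand setting is stated, so that reads of overlapping antisense genes cannot be told apart.

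Fits used log2(TPM + 1), a scale on which changes of low genes come out too small. Genes reaching 1 TPM in 4 or more of 9 libraries were tested with limma 3.58.1 in R 4.3.3 (lmFit, eBayes with trend, two-sided), with Benjamini-Hochberg adjustment over all 12,149 genes. A count model was not applied, as TPM are not counts. For a call, the adjusted p had to be below 0.05 and the log2 difference at least 1 in size. These are the thresholds of the study, which applied them in a count model with TMM normalization. The counts of calls are therefore not comparable with those of the study. Differences are 42 °C minus 37 °C. Ratios were tested by exact permutation over libraries. The code was tested on simulated data.

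The members and lists were chosen with earlier results of these data known. The text names all 10 members, the pathway genes at an adjusted p below 0.05, HSPA1A, and the 5 genes most like each called member. YTHDC2, POP1, MAT2B, IGF2BP1 and IGF2BP3 were named after their values were seen. RBMX was not matched by name. Sequences were not used here.

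The main fit and the permutation of the ratios did not use the letters as pairs. The same oviducts were represented at both temperatures, so the letters served as pairs in the replicate block and the sign-flip test. Deviations from the group means correlated at 0.125 (A), 0.238 (B), 0.369 (C), 0.273 (D) and 0.211 (E) between libraries of a letter. Alternatives covered the pseudocount, the filter, the scaling, the variance model, all 10 libraries, the replicate block and leaving out each library. Figures were drawn with matplotlib 3.10.9.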

Additional observations from a re-analysis of the deposited data

Results flagged for a closer look

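In 5 of 36 groups of libraries examined by Dixon's criterion 1 library stood apart, where chance flags about 1 group in 20. The groups share libraries, and the ratios reuse the members, so they are not independent. An excess over chance was not tested. The library 42C A was the lowest of the 4 HS libraries for YTHDF2 (63.7 TPM), YTHDC1 (50.9 TPM) and ALKBH5 (176 TPM). The library 37C D was the highest of the 5 thermoneutral libraries for VIRMA (27.4 TPM), and 37C B the lowest for the log2 ratio of METTL3 to METTL14 (-0.18).

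The library 42C B, which is not part of the comparison, lay above every thermoneutral library for 6 of the 10 members (29.4% of all tested genes), namely VIRMA (34.0 TPM), YTHDF1 (31.8 TPM), YTHDF2 (88.8 TPM), YTHDC1 (97.8 TPM), ALKBH5 (343 TPM) and FTO (27.8 TPM).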

How the results depend on the processing

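Of the 10 members, 4 were called higher as deposited, 1 with a pseudocount of 5, median-ratio scaling or quantile normalization, 2 without the mitochondrial genome, with all 10 libraries or with all 10 libraries and the replicate block, and 1 to 4 when 1 library was left out (1 without 42C D). With the replicate block on 9 libraries 3 were called, and the block changed no other call of a member. Of the 27 pathway genes at an adjusted p below 0.05, the block left MAT2A, UPF1 and ZCCHC4 above it. Over all genes, a pseudocount of 5 gave 1371 calls (884 higher and 487 lower) in place of 2782 (1915 and 867), median-ratio scaling gave 921 higher and 1434 lower, and quantile normalization 981 higher. The only member whose sign turned was WTAP, with -0.051 under median-ratio scaling. METTL3, YTHDF2, YTHDF3 and FTO were under the fold threshold and at an adjusted p below 0.05 under all 20 alternatives. The ratios of WTAP to METTL3 and of YTHDC1 to YTHDF2 kept their direction throughout, but most alternatives left their adjusted p above 0.05. Within pairs, as the replicate block, they differed by -0.54 and 0.49. With 1 library left out they differed by -0.65 to -0.54 and 0.46 to 0.55. Neither alternative allows a smaller p. With all 10 libraries they differed by -0.49 and 0.55 (exact permutation, adjusted p = 0.0952 and 0.0635). There WTAP to METTL3 overlapped between the temperatures, with 42C B inside the thermoneutral range. YTHDC1 to YTHDF2 did not overlap, and its p was the smallest that 5 and 5 libraries allow.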

Other observations

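The library 42C B, outside the comparison, held several other m6A genes at levels beyond all 9 compared libraries. The share of all tested genes that did so was not counted, so this is not shown to be particular to m6A genes. The methyl donor enzymes MAT2A and AHCY were at 193 TPM and 767 TPM there, against at most 110 TPM and 574 TPM elsewhere, and NXF1 was at 67.5 TPM against at most 35.0 TPM. On the low side, SRSF3 was at 42.1 TPM against at least 226 TPM elsewhere, HNRNPA2B1 at 129 TPM against at least 315 TPM, YTHDC2 at 0.65 TPM against at least 4.36 TPM, METTL5 at 12.5 TPM against at least 23.3 TPM, and ZC3H13 at 4.50 TPM against at least 8.98 TPM. CBLL1 and POP1 in 42C B also lay above all 9 compared libraries, and METTL4, ZCCHC4, EIF3A, PCIF1 and SRSF10 below them. The genes of this paragraph were picked out after their values were seen.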
